A study of Mus musculus with 70 samples.

Results

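Nmb, Vip, Tac1, Cartpt, Gal, Npy, Penk, Pdyn, Nts and Adcyap1 encode precursors of neuropeptides, and their RNA was followed in the mouse pituitary gland under low and high thyroid hormone, with and without an intact Thrb gene. The set was given by gene symbol and holds 10 of the 22835 genes in the RNA table. Each gene was read from its transcript with the highest mean level, and Cartpt was the member with 2 transcripts in the table while the other members had 1. All 10 were found.

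Neuropeptides are short signalling peptides that are cut from longer precursor proteins inside secretory granules, trimmed and often amidated, and then released to act on receptors of other cells, most of them coupled to G proteins. The pituitary makes several of them in its own hormone cells, and its posterior lobe also receives peptides from the endings of hypothalamic axons. Thyroid hormone acts through nuclear receptors encoded by Thra and Thrb, and in the anterior lobe it lowers the output of the thyrotrophs, the cells that make thyroid-stimulating hormone.

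Pituitary RNA, the binding of the receptor encoded by Thrb and open chromatin were measured in mice with altered thyroid hormone status. The series holds 70 samples, of which 18 are the RNA libraries followed here. Each RNA library was made from a pool of 3 pituitaries of adult male C57BL/6J mice aged 2 to 4 months, by sequencing of polyadenylated RNA. Receptor binding was measured by chromatin affinity purification (ChAP-seq), in which a tagged receptor is biotinylated by the enzyme BirA and pulled down.

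The RNA libraries fell into 4 groups. Hypothyroid mice drank 0.05% methimazole (MMI) with 1% KClO4 for 4 to 5 weeks, which blocks the making of thyroid hormone, and hyperthyroid mice drank the same with 0.5 µg/ml triiodothyronine (T3) added in the last week. All 18 RNA libraries thus share MMI and KClO4, and none came from untreated mice. Wild type gave 4 hypothyroid and 4 hyperthyroid libraries, and mice labelled Thrb-deficient (Thrb-KO) gave 5 of each. The ChAP-seq lists compared 3 libraries of ThrbHAB/HAB;Rosa26BirA/BirA mice, which carry the tagged receptor, with 3 of Rosa26BirA/BirA mice, which carry the enzyme alone, in untreated pituitary and in untreated cerebral cortex, and each pituitary library pooled 12 glands. The strain is labelled C57BL/6J throughout, while the methods of the series describe mixed backgrounds for the other mice, with 129/SvJ, C57BL/6J, 129/OlaHsd and FVB/N in the crosses for ChAP-seq and C57BL/6J and 129/Sv in those for ATAC-seq. The characteristics of these untreated enzyme-only libraries repeat the tagged genotype, against their titles, and the titles were followed. ATAC-seq, which cuts open chromatin with a transposase, compared 4 hypothyroid with 4 hyperthyroid libraries of nuclei from 1 or 2 pooled pituitaries of Thrb-b2Cre/+;Rosa26Sun1-GFP/Sun1-GFP mice, sorted by the tag that this Cre driver turns on, so its list covers cells in which that driver was active.

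Library totals ran from 21453548 to 55273749 reads on transcripts. Group medians were 34673225 and 37298252 reads in the hypothyroid and hyperthyroid wild-type groups and 30555938 and 35928944 reads in the Thrb-KO groups. Levels are given in CPM, the reads of a transcript scaled to a library of 1000000 reads, and 3 reads amounted to 0.0543 to 0.140 CPM depending on the library. The labels name 2 library kits for the RNA libraries without saying which library used which. The replicates numbered 1 and 2 stood apart from those numbered 3 to 5 in every group. The Lars2 transcript, which encodes a mitochondrial leucyl-tRNA synthetase, read 2571 to 3419.5 CPM in the 8 libraries of replicates 1 and 2 and 53.2 to 95.1 CPM in the other 10. Both sets are present in each group, so for the 5 tested members most values are also given within replicates 1 and 2 and within replicates 3 to 5.

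Thrb itself was read at 239, 242, 249 and 297 CPM in the hypothyroid and 124, 117, 72.4 and 103 CPM in the hyperthyroid wild-type libraries, and at 272, 295, 278, 271 and 239 CPM in the hypothyroid and 288, 301, 239, 245 and 228 CPM in the hyperthyroid libraries labelled Thrb-KO. The RNA did not fall with the label Thrb-KO, and the wild-type libraries were low only under T3, with no overlap between the wild-type groups. By limma, T3 changed Thrb RNA by −1.32 on the log2 scale in wild type (adjusted p = 9.81e-07) and by −0.06 in Thrb-KO (adjusted p = 1.00). The difference between these responses was 1.26 (adjusted p = 2.28e-04). The table gives 1 value per transcript, so a deletion inside the gene cannot be read from it, and the genotype is used as labelled.

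The tests asked how T3 changed each gene in wild type, how it changed it in Thrb-KO, whether these responses differed, and how Thrb-KO differed from wild type in hypothyroid and in hyperthyroid glands. Genes above 1 CPM in at least 4 libraries were tested with limma on log2(CPM + 1), which gave 14472 genes, and a gene was called at an adjusted p under 0.05 with a change of at least 1.5-fold. Of the 10 members, 5 passed this filter (Nmb, Cartpt, Gal, Penk and Pdyn) and 5 did not (Vip, Tac1, Npy, Nts and Adcyap1). Cartpt and Gal passed through 6 libraries each, all wild type, so the counts of members below are a description and not support for a difference between groups. The 5 contrasts share libraries and are given side by side.

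In wild type, T3 lowered 4 of the 5 tested members (Nmb, Cartpt, Penk and Pdyn) and raised 0, beside 6.14% of all tested genes called lower and 4.28% called higher. With limma, 0 members were called in the T3 response of Thrb-KO, beside 1.33% of all genes called by limma (0.767% lower and 0.567% higher). In this contrast 2 members had an unadjusted p under 0.05, edgeR called 1 and DESeq2 called 2. The difference between the responses was called positive for 4 members (Nmb, Cartpt, Penk and Pdyn) and negative for 0, beside 2.94% of all genes called higher and 2.19% lower. Between hypothyroid glands, 3 members (Nmb, Cartpt and Gal) were called lower in Thrb-KO, beside 2.36% lower and 1.18% higher of all genes. Between hyperthyroid glands, 2 members (Penk and Pdyn) were called higher and 1 (Gal) lower in Thrb-KO, beside 2.83% higher and 2.82% lower. In bulk RNA, fewer cells of a type and less RNA per cell cannot be told apart.

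The scaling of the libraries moved the whole distribution slightly. With TMM scaling the median change of all genes went from −0.040 to 0.064 on the log2 scale in wild type, from 0.035 to −0.048 in the difference between responses and from 0.064 to −0.027 between hyperthyroid glands. The split of called genes moved with it. In wild type, limma called 620 genes higher and 889 lower, 822 and 662 with TMM scaling, while edgeR called 899 and 878 and DESeq2 934 and 909. For the difference between responses the split was 425 higher and 317 lower, 319 and 440 with TMM scaling, 378 and 422 with edgeR and 456 and 477 with DESeq2. Between hyperthyroid glands it was 409 and 408, 301 and 514 with TMM scaling, 405 and 678 with edgeR and 433 and 754 with DESeq2. The members called by limma in these contrasts were called in the same number with TMM scaling and with edgeR and DESeq2 at the same filter.

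Cartpt (NM_013732) encodes the precursor of the CART peptides, known from brain circuits of feeding. It was read at 7.71, 5.98, 18.2 and 35.4 CPM in the hypothyroid and 0.315, 0.412, 1.95 and 2.46 CPM in the hyperthyroid wild-type libraries, and at 0.752, 0.524, 0.832, 0.855 and 0.831 CPM in the hypothyroid and 0.245, 0.473, 0.739, 0.851 and 0.559 CPM in the hyperthyroid Thrb-KO libraries. The hypothyroid wild-type libraries were high and lay above every other library, with replicates 3 and 4 above replicates 1 and 2, and the groups of Thrb-KO overlapped each other. By limma, T3 changed Cartpt by −2.78 ± 0.39 on the log2 scale in wild type (SE, n = 4 and 4, adjusted p = 3.16e-05). The change in Thrb-KO was −0.17 ± 0.35 (SE, n = 5 and 5, adjusted p = 1.00), and the difference between responses was 2.61 ± 0.53 (adjusted p = 0.00393). Hypothyroid Thrb-KO libraries lay −3.03 ± 0.37 from hypothyroid wild type (adjusted p = 2.12e-05). Between hyperthyroid glands the value was −0.42 ± 0.37 (adjusted p = 0.525). Within replicates 1 and 2 and within replicates 3 to 5, the wild-type response was −2.52 and −3.05, the difference between responses 2.24 and 2.95, and the hypothyroid difference −2.25 and −3.85. The hyperthyroid difference was −0.01 within replicates 1 and 2 and −0.90 within replicates 3 to 5, where limma called it (adjusted p = 0.0159), and over all alternatives its adjusted p reached 0.979. With edgeR on reads, which adds no CPM to low values, the hypothyroid difference was −4.49 and the hyperthyroid one −1.22 (adjusted p = 0.256, not called), and the responses were −3.67 in wild type and −0.41 in Thrb-KO.

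Nmb (NM_026523) encodes the precursor of neuromedin B, a peptide of the bombesin family that is known to lower the release of thyroid-stimulating hormone. It was read at 4.42, 4.17, 9.48 and 10.5 CPM in the hypothyroid and 2.41, 1.54, 3.61 and 2.91 CPM in the hyperthyroid wild-type libraries, and at 2.22, 1.96, 2.19, 3.19 and 2.49 CPM in the hypothyroid and 3.37, 2.42, 3.36, 2.96 and 2.00 CPM in the hyperthyroid Thrb-KO libraries. The hypothyroid wild-type libraries lay above every other library, replicates 3 and 4 again above replicates 1 and 2, and the other groups overlapped. By limma, T3 changed Nmb by −1.11 ± 0.24 on the log2 scale in wild type (SE, n = 4 and 4, adjusted p = 0.00202) and by 0.16 ± 0.21 in Thrb-KO (SE, n = 5 and 5, adjusted p = 1.00). The responses differed by 1.27 ± 0.32 (adjusted p = 0.0193), and this was no longer called without hypothyroid wild-type replicate 3, where it was 1.12 (adjusted p = 0.0503, the highest over the alternatives). Hypothyroid Thrb-KO libraries lay −1.17 ± 0.23 from wild type (adjusted p = 0.00237). Between hyperthyroid glands the value was 0.10 (adjusted p = 0.823), and its sign turned without hyperthyroid wild-type replicate 2 (−0.06, with adjusted p up to 0.981 over the alternatives). Within replicates 1 and 2 and within replicates 3 to 5, the wild-type response was −0.85 and −1.37, the difference between responses 1.17 and 1.42, the hypothyroid difference −0.78 and −1.61 and the hyperthyroid difference 0.39 and −0.19. Nmb overlaps Sec11a on the same strand over 188 bases, so reads from the shared stretch cannot be told apart. Sec11a, which encodes a signal peptidase subunit, had group means of 42.0 and 41.2 CPM in hypothyroid and hyperthyroid wild type and 35.0 and 36.1 CPM in Thrb-KO.

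Penk (NM_001002927) encodes proenkephalin, the precursor of the enkephalins, which act on delta and mu opioid receptors. It was read at 28.2, 19.0, 11.5 and 16.7 CPM in the hypothyroid and 3.73, 4.12, 3.93 and 2.46 CPM in the hyperthyroid wild-type libraries, and at 9.47, 9.52, 13.8, 11.3 and 19.3 CPM in the hypothyroid and 7.25, 8.02, 5.96, 7.22 and 8.95 CPM in the hyperthyroid Thrb-KO libraries. The hyperthyroid wild-type libraries were the low ones and lay below every other library, while the hypothyroid groups overlapped and each hyperthyroid Thrb-KO library lay below each hypothyroid one. By limma, T3 changed Penk by −2.07 ± 0.23 on the log2 scale in wild type (SE, n = 4 and 4, adjusted p = 1.88e-06). The change in Thrb-KO was −0.65 ± 0.21 (SE, n = 5 and 5, adjusted p = 0.141), and the difference between responses was 1.42 ± 0.31 (adjusted p = 0.00720). DESeq2 on reads called the change in Thrb-KO (−0.75, adjusted p = 0.0448) and edgeR did not (−0.75, adjusted p = 0.118). Hyperthyroid Thrb-KO libraries lay 0.90 ± 0.22 above hyperthyroid wild type (adjusted p = 0.00854). Between hypothyroid glands the value was −0.52 ± 0.22 (adjusted p = 0.193). Within replicates 1 and 2 the wild-type response was −2.29, the difference between responses 2.01 and the hypothyroid difference −1.20 (adjusted p = 6.53e-05, called). Within replicates 3 to 5 they were −1.84, 0.95 (adjusted p = 0.162, not called) and 0.06 (adjusted p = 0.905, the highest over the alternatives). With the replicate number as a block the hypothyroid difference was −0.62 and called (adjusted p = 0.0440), and with the library set as a block it was −0.51 and not called (adjusted p = 0.106). The hyperthyroid difference was 0.81 and 1.00 within the sets. Penk shares 499 bases with A830012C17Rik on the opposite strand, a gene that is not in the table, so reads from there cannot be told apart.

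Pdyn (NM_018863) encodes prodynorphin, the precursor of the dynorphins, which act on the kappa opioid receptor. It was read at 7.48, 6.21, 7.09 and 5.95 CPM in the hypothyroid and 2.29, 2.09, 1.91 and 1.88 CPM in the hyperthyroid wild-type libraries, and at 5.98, 4.65, 6.59, 6.74 and 5.95 CPM in the hypothyroid and 3.91, 3.70, 3.48, 4.00 and 3.96 CPM in the hyperthyroid Thrb-KO libraries. The hyperthyroid wild-type libraries lay below every other library, the hyperthyroid Thrb-KO libraries lay between them and the hypothyroid libraries, and the hypothyroid groups overlapped. By limma, T3 changed Pdyn by −1.33 ± 0.10 on the log2 scale in wild type (SE, n = 4 and 4, adjusted p = 1.52e-08). The change in Thrb-KO was −0.53 ± 0.09 (SE, n = 5 and 5, adjusted p = 0.00178), which is under 1.5-fold. It was called by edgeR (−0.64, adjusted p = 0.00161) and DESeq2 (−0.65, adjusted p = 4.11e-06) on reads, by limma with a pseudocount of 0.1, and by limma without hypothyroid Thrb-KO replicate 2 (−0.60, adjusted p = 3.14e-04), while over all alternatives the adjusted p reached 0.132. The difference between responses was 0.80 ± 0.14 (adjusted p = 8.54e-04). Hyperthyroid Thrb-KO libraries lay 0.66 ± 0.10 above hyperthyroid wild type (adjusted p = 9.44e-05), and between hypothyroid glands the value was −0.14 ± 0.10 (adjusted p = 0.488). Within replicates 1 and 2 and within replicates 3 to 5, the wild-type response was −1.29 and −1.37, the difference between responses 0.91 and 0.75 and the hyperthyroid difference 0.59 and 0.73. The Thrb-KO response was −0.39 within replicates 1 and 2 (adjusted p = 0.132) and −0.62 within replicates 3 to 5, where it was called (adjusted p = 0.0105).

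Gal (NM_010253) encodes the precursor of galanin, a peptide found in lactotrophs and other pituitary cells. It was read at 2.23, 1.28, 2.30 and 2.28 CPM in the hypothyroid and 0.967, 1.73, 1.34 and 0.995 CPM in the hyperthyroid wild-type libraries, and at 0.581, 0.295, 0.561, 0.394 and 0.544 CPM in the hypothyroid and 0.272, 0.306, 0.453, 0.158 and 0.373 CPM in the hyperthyroid Thrb-KO libraries. Every wild-type library lay above every Thrb-KO library, and hypothyroid and hyperthyroid libraries overlapped in each genotype. Thrb-KO libraries lay −1.02 ± 0.12 from wild type in hypothyroid glands (SE, n = 5 and 4, limma adjusted p = 2.00e-05) and −0.77 ± 0.12 in hyperthyroid glands (SE, n = 5 and 4, adjusted p = 2.58e-04). These values shrink with the 1 CPM added before the logarithm, and edgeR on reads gave −2.09 and −2.07. By limma, T3 changed Gal by −0.42 ± 0.13 in wild type (adjusted p = 0.0296, under 1.5-fold) and by −0.17 ± 0.12 in Thrb-KO (adjusted p = 0.927). The responses differed by 0.25 (adjusted p = 0.628), which was not called. On reads, edgeR gave T3 responses of −0.62 in wild type (adjusted p = 0.105) and −0.60 in Thrb-KO (adjusted p = 0.573), neither called, with a difference of 0.023 (adjusted p = 0.991). Within replicates 1 and 2 and within replicates 3 to 5, the hypothyroid difference between genotypes was −0.92 and −1.14 and the hyperthyroid one −0.85 and −0.71. The wild-type response was −0.23 within replicates 1 and 2 (adjusted p = 0.384, the highest over the alternatives) and −0.61 within replicates 3 to 5, where it was called (adjusted p = 0.0135).

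**Figure D1:**
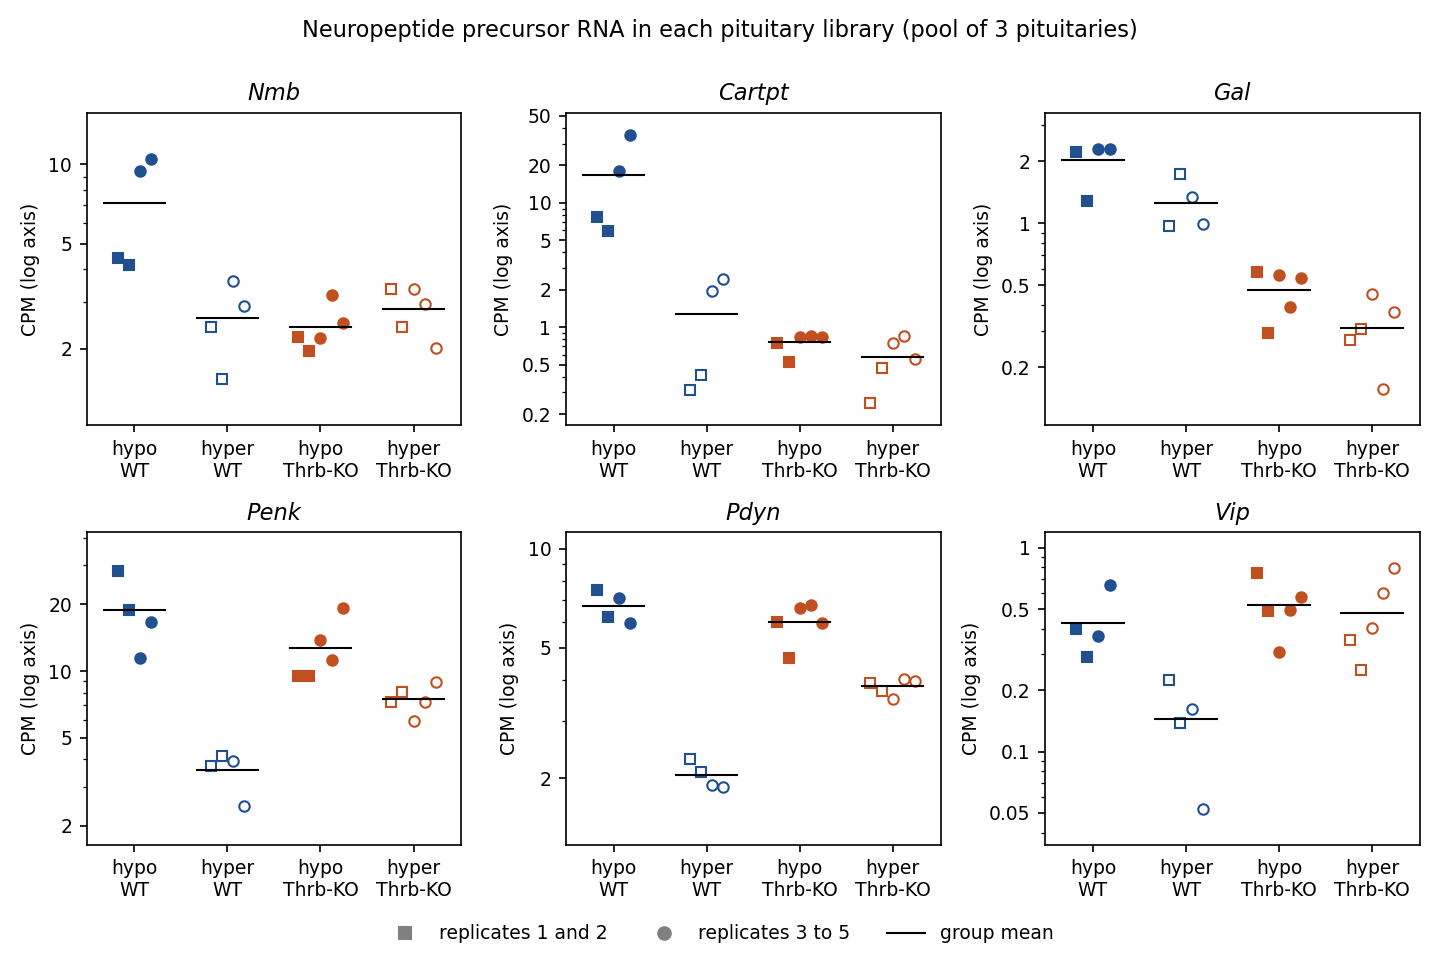
RNA of 6 neuropeptide precursor genes in each library, in CPM on a log axis, with blue for wild type, orange for libraries labelled Thrb-KO, filled points for hypothyroid and open points for hyperthyroid mice, squares for replicates 1 and 2, circles for replicates 3 to 5, and lines at the group means. The hypothyroid wild-type points lie highest for Nmb (4.17 to 10.5 CPM) and Cartpt (5.98 to 35.4 CPM), the hyperthyroid wild-type points lie lowest for Penk (2.46 to 4.12 CPM) and Pdyn (1.88 to 2.29 CPM), and Gal is split by genotype.

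The members that were called thus fell into 3 patterns, given here as a description. Cartpt and Nmb were high in hypothyroid wild type alone. Penk and Pdyn were low in hyperthyroid wild type alone, and the hyperthyroid Thrb-KO libraries of these genes lay between the hyperthyroid wild-type and the hypothyroid libraries. Gal was higher in wild type than in Thrb-KO under either treatment.

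**Figure D2:**
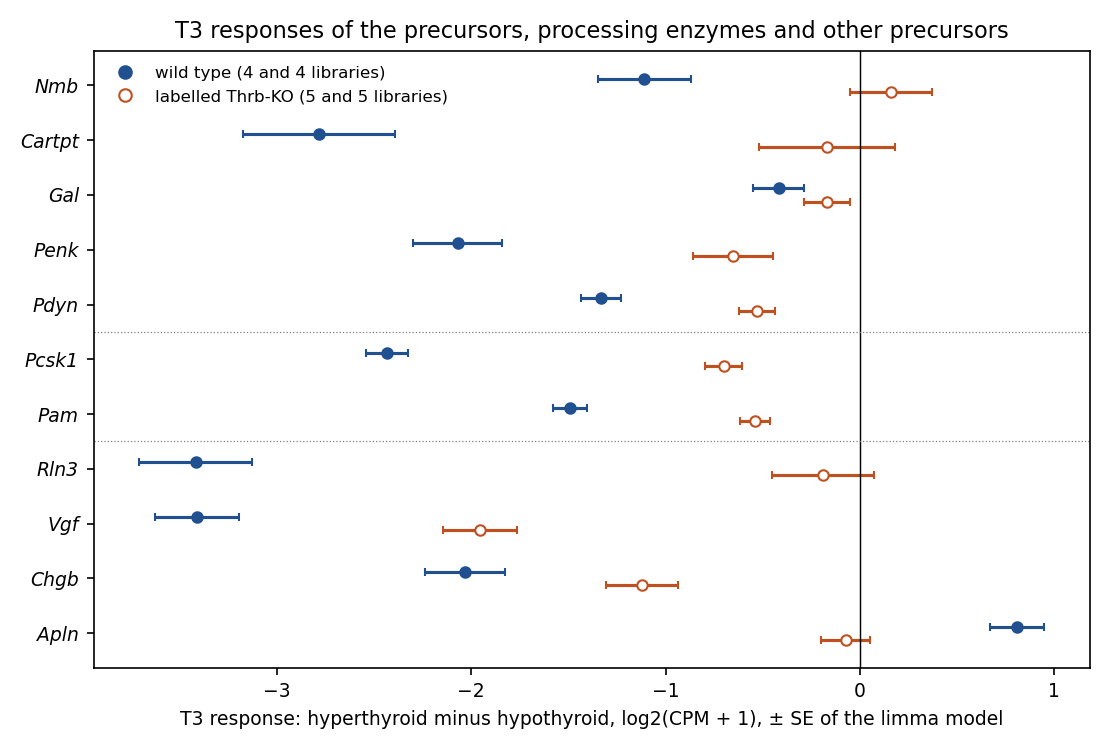
T3 response of the 5 tested neuropeptide precursor genes and of Pcsk1, Pam, Rln3, Vgf, Chgb and Apln. Points give the log2 change of hyperthyroid over hypothyroid libraries with its SE by limma. Filled blue points are wild type (4 and 4 libraries) and open orange points are Thrb-KO (5 and 5 libraries). Among the 5 members the wild-type points run from −2.78 for Cartpt to −0.42 for Gal. Their Thrb-KO points run from −0.65 for Penk to 0.16 for Nmb. Among the other genes the wild-type points run from −3.42 for Rln3 to 0.81 for Apln, and the lowest Thrb-KO point is −1.96 for Vgf.

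The members that did not pass the filter had few reads. Vip (NM_011702) encodes the precursor of vasoactive intestinal peptide, a known stimulus of prolactin release. It was read at 0.400, 0.292, 0.367 and 0.653 CPM in the hypothyroid and 0.225, 0.137, 0.162 and 0.0524 CPM in the hyperthyroid wild-type libraries, and at 0.752, 0.491, 0.308, 0.493 and 0.576 CPM in the hypothyroid and 0.353, 0.250, 0.405, 0.599 and 0.792 CPM in the hyperthyroid Thrb-KO libraries. These were 58, 21, 87 and 75 reads in all per group, and the hyperthyroid wild-type libraries were low and lay below every other library. To test it, edgeR was fitted to the 18592 genes with at least 10 reads over the 18 libraries, a fit chosen after seeing the data. In this fit T3 changed Vip by −1.46 on the log2 scale in wild type (adjusted p = 0.0269) and by −0.14 in Thrb-KO (adjusted p = 1.00), beside 5.68% of these genes called lower in wild type. Without hypothyroid Thrb-KO replicate 1 or hyperthyroid Thrb-KO replicate 2 the Thrb-KO value was 0.028. The difference between responses was 1.33 and not called (adjusted p = 0.247). Hyperthyroid Thrb-KO libraries lay 1.59 above hyperthyroid wild type (adjusted p = 0.0185), beside 2.64% of genes called higher. DESeq2 on the same genes gave −1.48 (adjusted p = 0.0144) and 1.61 (adjusted p = 0.00601) for these contrasts. The call of the wild-type response ended without hypothyroid wild-type replicate 4 (−1.20, edgeR adjusted p = 0.0938), without hyperthyroid wild-type replicate 2 (−1.42, edgeR adjusted p = 0.0649) and without hyperthyroid wild-type replicate 4 (−1.16, edgeR adjusted p = 0.0895). The call between hyperthyroid glands ended without hyperthyroid wild-type replicate 4 (1.28, edgeR adjusted p = 0.0678). The call of Vip thus rests on single libraries with few reads. In limma with no filter the wild-type value was −0.32 (adjusted p = 0.0558) and the difference between hyperthyroid glands 0.36 (adjusted p = 0.0293, under 1.5-fold), so neither was called there.

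Tac1 (NM_009311) encodes the precursor of substance P and neurokinin A. It was read at 0.342, 0.350, 0.138 and 0.544 CPM in the hypothyroid and 0.225, 0.165, 0.284 and 0.157 CPM in the hyperthyroid wild-type libraries, and at 0.205, 0.229, 0.289, 0.263 and 0.703 CPM in the hypothyroid and 0.109, 0.139, 0.191, 0.189 and 0.0932 CPM in the hyperthyroid Thrb-KO libraries, from 45, 29, 59 and 25 reads per group. The groups overlapped except that the hyperthyroid Thrb-KO libraries lay below the hypothyroid Thrb-KO ones, and replicate 5 of the latter was high. In the edgeR fit the T3 response of Tac1 was −0.64 in wild type (adjusted p = 0.396) and −1.16 in Thrb-KO (adjusted p = 0.248), and the difference between them was −0.52 (adjusted p = 0.836). None of these passed the threshold. Npy (NM_023456), which encodes neuropeptide Y, was read from 4 and 13 reads in hypothyroid and hyperthyroid wild type and from 4 and 10 reads in Thrb-KO, at 0 to 0.324 CPM, and 8 of the 13 reads came from hyperthyroid wild-type replicate 3. Its wild-type response in the edgeR fit was 1.70 (adjusted p = 0.333). Nts (NM_024435), which encodes neurotensin and neuromedin N, had 5, 3, 0 and 1 reads in the groups in the same order. Adcyap1 (NM_009625), which encodes the pituitary adenylate cyclase-activating peptide PACAP, had 3, 1, 2 and 3 reads. Limma with no filter called no difference for Nts or Adcyap1, and with so few reads a difference could be missed.

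Levels of different genes were compared per kilobase of transcript, since longer transcripts give more reads. In hypothyroid wild type the order by mean CPM per kb was Cartpt (19.3 ± 15.5, SD, n = 4), Penk (13.0 ± 4.84), Nmb (10.1 ± 4.69), Gal (2.84 ± 0.694) and Pdyn (2.80 ± 0.303), followed by Tac1 (0.332 ± 0.160) and Vip (0.280 ± 0.103). Neighbours are taken as not differing beyond their spread where their ranges over the libraries overlapped, which was so among the first 3, for Gal with Pdyn and for Tac1 with Vip. In hyperthyroid wild type the order was Nmb (3.71 ± 1.23, SD, n = 4), Penk (2.46 ± 0.519), Gal (1.77 ± 0.503), Cartpt (1.47 ± 1.24) and Pdyn (0.856 ± 0.0799), and each gene's range overlapped that of the next. Penk led in hypothyroid Thrb-KO (8.75 ± 2.83, SD, n = 5), ahead of Nmb (3.42 ± 0.671), Pdyn (2.51 ± 0.345), Cartpt (0.868 ± 0.157) and Gal (0.667 ± 0.175). The ranges of Nmb and Pdyn overlapped, and so did those of Cartpt and Gal. In hyperthyroid Thrb-KO the order was the same, with Penk (5.16 ± 0.763, SD, n = 5), Nmb (4.01 ± 0.850), Pdyn (1.60 ± 0.0920), Cartpt (0.656 ± 0.270) and Gal (0.439 ± 0.155), and the ranges overlapped for Penk with Nmb and for Cartpt with Gal. Npy, Nts and Adcyap1 had lower means than the 5 tested members in every group.

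The genes whose pattern over the 18 libraries was most like that of each called member were found by Pearson's r of log2(CPM + 1), as a description, with the libraries falling into 4 groups. For Cartpt they were Rln3 (r = 0.976), Dhrs1 (r = 0.964) and Praf2 (r = 0.962). For Nmb they were Cartpt (r = 0.918), Cadm3 (r = 0.913) and Hs3st2 (r = 0.910). Rln3 encodes the precursor of relaxin-3, another neuropeptide, and Cartpt was itself the gene most like Nmb. For Gal they were Cacng5 (r = 0.930), Slc10a4 (r = 0.926) and Fam129a (r = 0.916). For Penk they were Osbp2 (r = 0.928), Dgkk (r = 0.922) and Myo18b (r = 0.921). For Pdyn they were Gpc4 (r = 0.963), Dio2 (r = 0.962) and Dlk1 (r = 0.960), of which Dio2 encodes the deiodinase that makes T3 from thyroxine. Between members, r over the same libraries was 0.917 for Penk with Pdyn, 0.918 for Nmb with Cartpt, 0.789 for Cartpt with Gal and 0.628 for Nmb with Gal. It was 0.370 for Nmb with Penk, 0.399 for Nmb with Pdyn, 0.458 for Cartpt with Penk, 0.420 for Cartpt with Pdyn, 0.189 for Gal with Penk and 0.0787 for Gal with Pdyn.

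Of 23 receptors of the member peptides, 22 were in the table and 9 were tested. In wild type T3 lowered 1 of them, Oprk1, and raised 0. Oprk1 encodes the kappa opioid receptor, at which the products of Pdyn act, and its means were 0.901 ± 0.256 and 0.237 ± 0.0526 CPM in hypothyroid and hyperthyroid wild type and 1.74 ± 0.130 and 1.15 ± 0.277 CPM in hypothyroid and hyperthyroid Thrb-KO (SD, n = 4, 4, 5 and 5). Its change was −0.61 on the log2 scale (limma adjusted p = 4.58e-04), which the added 1 CPM shrinks, and edgeR on reads gave −1.82 (adjusted p = 6.14e-05). No receptor was called by limma in the T3 response of Thrb-KO, where 2 had an unadjusted p under 0.05 and edgeR and DESeq2 called 0. For the difference between responses limma called 0, with 1 at an unadjusted p under 0.05, and edgeR and DESeq2 each called 1, Oprk1 (1.24 by edgeR, adjusted p = 0.0288). Between hypothyroid glands limma called 1 receptor higher in Thrb-KO, Oprm1 of the mu opioid receptor (0.69, adjusted p = 4.11e-04, and 1.67 by edgeR). Oprm1 passed the filter through 6 libraries, all Thrb-KO, the genotype in which it was high. There 5 receptors had an unadjusted p under 0.05, edgeR called 3 and DESeq2 called 4. Of those that limma did not call, edgeR called Oprk1 (0.93, adjusted p = 0.00773) and Ntsr2 (−1.02, adjusted p = 0.00221), as did DESeq2, which also called Galr3 (0.80, adjusted p = 0.0346). Between hyperthyroid glands 3 were called higher, Oprk1 (0.79, adjusted p = 3.44e-05), Oprm1 (0.64, adjusted p = 4.83e-04) and the galanin receptor gene Galr3 (0.63, adjusted p = 0.0243), and 1 lower, the neurotensin receptor gene Ntsr2 (−0.95, adjusted p = 3.47e-06). On reads edgeR gave 2.17, 1.98, 0.86 and −1.91 for these. Ntsr2 was named after its values were seen.

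The receptors of the called members stood at low levels. Oprm1 had group means of 0.375, 0.195, 1.21 and 0.869 CPM in hypothyroid wild type, hyperthyroid wild type, hypothyroid Thrb-KO and hyperthyroid Thrb-KO, and Oprd1, of the delta opioid receptor, 0.0273, 0.0702, 0.0465 and 0.0417 CPM in the same order. The galanin receptor genes had means of 0.0749, 0.165, 0.113 and 0.265 CPM for Galr1, 0.881, 0.852, 0.836 and 1.05 CPM for Galr2 and 1.52, 1.43, 2.69 and 2.75 CPM for Galr3. Nmbr, which encodes the neuromedin B receptor, was read at 0.0381, 0.0729, 0.126 and 0.0723 CPM. Grpr, which encodes the receptor of the related gastrin-releasing peptide, was read at 0.479, 0.0376, 0.0873 and 0.0558 CPM, highest in hypothyroid wild type, and did not pass the filter. The list held no receptor for the CART peptides.

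Of 11 genes for enzymes and helpers that process precursors, all 11 were tested. In wild type limma called 2 lower under T3 and 0 higher, and left 9 not called. Pcsk1 encodes prohormone convertase 1, which cuts precursors at pairs of basic residues, and its means were 698 ± 83.1 and 128 ± 5.54 CPM in hypothyroid and hyperthyroid wild type and 270.2 ± 38.0 and 165 ± 11.0 CPM in hypothyroid and hyperthyroid Thrb-KO (SD, n = 4, 4, 5 and 5). Pam encodes the enzyme that amidates the ends of peptides, and its means were 1125 ± 132 and 398 ± 28.9 CPM in hypothyroid and hyperthyroid wild type and 702 ± 32.6 and 482 ± 19.0 CPM in hypothyroid and hyperthyroid Thrb-KO (SD, n = 4, 4, 5 and 5). The wild-type responses by limma were −2.43 for Pcsk1 (adjusted p = 7.95e-12) and −1.49 for Pam (adjusted p = 4.83e-10). In Thrb-KO 1 was called lower, Pcsk1 (−0.70, adjusted p = 1.73e-04), and Pam fell by less than 1.5-fold (−0.54, adjusted p = 3.41e-04). Both also differed in response between genotypes, 1.73 for Pcsk1 (adjusted p = 2.34e-07) and 0.95 for Pam (adjusted p = 3.06e-05). Between hypothyroid glands 3 were lower in Thrb-KO, Pcsk1 (−1.37), Pam (−0.67) and Pcsk2 (−0.68), the last named after its value was seen. Between hyperthyroid glands limma called 0, with 6 at an unadjusted p under 0.05, and edgeR and DESeq2 called 0. In wild type, Thrb-KO, the difference between responses and hypothyroid glands, edgeR called 3, 2, 2 and 3 processing genes and DESeq2 called 3, 2, 3 and 4. In both genotypes these included Cpz, of a carboxypeptidase, named after its values were seen, which rose under T3 while Pcsk1 and Pam fell (0.99 by edgeR in wild type, adjusted p = 0.0227, and 1.15 in Thrb-KO, adjusted p = 0.0346). Limma gave Cpz 0.56 and 0.52, under 1.5-fold. Of 8 genes for enzymes that degrade peptides, all tested, limma called 0 in each of the 5 contrasts, with 2, 0, 1, 2 and 3 at an unadjusted p under 0.05 in wild type, Thrb-KO, the difference between responses, hypothyroid glands and hyperthyroid glands, and edgeR and DESeq2 called 0 in each.

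Of 49 other genes for peptide precursors and granule proteins, 16 were tested. In wild type T3 lowered 4, Rln3, Vgf, Chgb and Scg3, and raised 1, Apln. Rln3 had means of 18.1 ± 10.9 and 0.735 ± 0.809 CPM in hypothyroid and hyperthyroid wild type and 0.238 ± 0.0617 and 0.0847 ± 0.0475 CPM in hypothyroid and hyperthyroid Thrb-KO (SD, n = 4, 4, 5 and 5), and its wild-type response was −3.42 (limma adjusted p = 6.38e-08). Like Cartpt, it was highest in hypothyroid wild type, and it passed the filter through 5 libraries, all wild type. Vgf, which encodes a granule protein cut into several peptides, had means of 68.8 ± 11.1 and 5.66 ± 1.59 CPM in hypothyroid and hyperthyroid wild type and 38.6 ± 9.12 and 9.18 ± 2.19 CPM in hypothyroid and hyperthyroid Thrb-KO (SD, n = 4, 4, 5 and 5) and a wild-type response of −3.41 (adjusted p = 1.04e-09). Chgb, the granule protein chromogranin B, had means of 17296, 4077, 11191 and 5158 CPM in the same order and a wild-type response of −2.03 (adjusted p = 5.81e-07). Apln, the precursor of apelin, went the other way, with means of 17.4, 30.9, 15.6 and 14.7 CPM and a response of 0.81 (adjusted p = 2.70e-04). Scg3, a granule protein named after its value was seen, changed by −1.05. In Thrb-KO 2 were called lower, Vgf (−1.96, adjusted p = 2.76e-06) and Chgb (−1.12, adjusted p = 0.00104). Responses were called different for Rln3 (3.23), Vgf (1.46) and Apln (−0.88). Between hypothyroid glands Rln3 (−3.80) and Vgf (−0.84) were lower in Thrb-KO, and between hyperthyroid glands Apln (−1.01) was. In wild type, Thrb-KO, the difference between responses, hypothyroid glands and hyperthyroid glands, limma called 5, 2, 3, 2 and 1 of these genes, edgeR 6, 2, 2, 2 and 2 and DESeq2 7, 3, 4, 3 and 3. The difference between responses of Rln3 was not called by edgeR (3.20, adjusted p = 0.190) and was by DESeq2 (3.11, adjusted p = 0.0389). Between hyperthyroid glands edgeR and DESeq2 called Rln3 lower in Thrb-KO (−3.06 and −3.16).

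Markers of pituitary and other cell types were read in the same libraries, and genes named from them were named after their values were seen. The part of these cell types in the results on the neuropeptide genes was not tested. The label of the tissue is met by high Gh, Prl, Pomc and Cga, the most abundant genes of the somatotroph, lactotroph, corticotroph and thyrotroph lists. All 6 thyrotroph markers were tested, and the sum of their levels was 10763, 10110.3, 18941 and 16260.1 CPM in hypothyroid and 1547, 1402, 2255 and 1851 CPM in hyperthyroid wild type, and 10002, 10484, 9640.5, 12144 and 11780 CPM in hypothyroid and 1894, 1948, 2006, 1889 and 1977 CPM in hyperthyroid Thrb-KO. T3 thus lowered the sum in each genotype, and the hypothyroid wild-type replicates 3 and 4 were high, as they were for Cartpt and Nmb. T3 lowered 5 of the 6 in wild type, Tshb (−4.95), Cga (−2.55), Trhr (−4.08), Dio2 (−4.81) and Gata2 (−0.64). In Thrb-KO it lowered 4, Tshb (−4.83), Cga (−2.11), Trhr (−2.04) and Dio2. The difference between responses was called for 2, Trhr (2.04) and Dio2 (2.81). Both were lower in hypothyroid Thrb-KO, and 3 were higher in hyperthyroid Thrb-KO, Trhr, Dio2 and Pou1f1. With edgeR and DESeq2, Gata2 in wild type (−0.57 by each) and Pou1f1 between hyperthyroid glands (0.55 and 0.56) were under 1.5-fold and not called. Gonadotrophs also express Cga.

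The macrophage and leukocyte list, 5 of 5 tested and led by Csf1r, had sums that were lower in Thrb-KO without overlap between hypothyroid glands and that overlapped between hyperthyroid glands. They were 86.9, 84.8, 91.5 and 88.6 CPM in hypothyroid and 59.1, 75.2, 68.8 and 94.1 CPM in hyperthyroid wild type, and 58.9, 54.8, 49.7, 47.1 and 48.2 CPM in hypothyroid and 56.0, 49.9, 60.5, 54.6 and 57.9 CPM in hyperthyroid Thrb-KO. Between hypothyroid glands 3 of its genes were lower in Thrb-KO, Csf1r (−0.77), C1qa (−0.84) and Cx3cr1 (−0.65), and between hyperthyroid glands 1 was, C1qa (−0.62). Of the 5 genes of this list, edgeR and DESeq2 each called 5 between hypothyroid glands and 2 between hyperthyroid glands, and limma gave 5 and 3 an unadjusted p under 0.05. The brain neuron and glia list had 9 genes in the table and 7 tested, led by Slc17a6, with Neurod6 and Mog below 0.5 CPM on average. Its sum was 99.97, 106, 103 and 117 CPM in hypothyroid and 132, 144, 89.0 and 107 CPM in hyperthyroid wild type, and 151, 149, 139, 145 and 133 CPM in hypothyroid and 154, 161, 148, 145 and 147 CPM in hyperthyroid Thrb-KO, higher in Thrb-KO without overlap between hypothyroid and between hyperthyroid glands. T3 raised Slc17a7 (1.11) and lowered Slc17a6 (−0.82) in wild type, and the difference between responses was called for Slc17a6 (0.88). In Thrb-KO, Slc17a6 was higher in hypothyroid (1.93) and hyperthyroid glands (2.81), Gad2 was lower in both (−1.16 and −1.36) and Slc32a1, which passed the filter through 4 libraries, all wild type, was lower in hypothyroid glands (−0.77). Between hyperthyroid glands limma called 2 of this list and edgeR and DESeq2 each called 4, with Slc17a7 (−0.73 by edgeR) and Slc32a1 (−1.14) lower in Thrb-KO as well. The somatotroph sum, of 2 genes led by Gh, was 48444, 51128, 66337 and 57840.1 CPM in hypothyroid and 104449, 87484, 159203 and 112261 CPM in hyperthyroid wild type, and 57984, 57874, 73859, 70460.5 and 72612 CPM in hypothyroid and 95074, 89501, 83010.1, 88489 and 115091 CPM in hyperthyroid Thrb-KO. T3 raised Gh in wild type (1.03). The lactotroph list holds Prl alone, at 6178, 5863, 8631 and 9334 CPM in hypothyroid and 15603, 14523, 53184 and 26905 CPM in hyperthyroid wild type, and 5917, 5161, 4792, 5239 and 4718 CPM in hypothyroid and 12031, 14091, 18856, 20408 and 15914 CPM in hyperthyroid Thrb-KO. T3 raised it by 1.70 in wild type and 1.63 in Thrb-KO, and hyperthyroid wild-type replicate 3 was high in both of these sums.

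Hypothalamic axon markers (Avp and Oxt, led by Oxt) summed to 3.08, 3.56, 3.08 and 3.34 CPM in hypothyroid and 5.35, 3.52, 20.2 and 4.66 CPM in hyperthyroid wild type, and 3.52, 4.65, 2.44, 2.43 and 1.69 CPM in hypothyroid and 2.66, 4.45, 2.74, 2.77 and 6.20 CPM in hyperthyroid Thrb-KO, with hyperthyroid wild-type replicate 3 apart from the rest. Posterior lobe pituicyte markers (5 genes, led by Scn7a) summed to 91.9, 117, 76.0 and 68.4 CPM in hypothyroid and 113, 142, 73.3 and 108 CPM in hyperthyroid wild type, and 130.0, 122, 95.4, 104 and 105 CPM in hypothyroid and 112, 116, 114, 116 and 105 CPM in hyperthyroid Thrb-KO. The other sums are given as ranges in hypothyroid wild type, hyperthyroid wild type, hypothyroid Thrb-KO and hyperthyroid Thrb-KO, in this order. They were 469 to 635, 394 to 503, 345 to 482 and 319 to 447 CPM for melanotroph markers (3 of 4 in the table, led by Pcsk2, which is also in the processing list), 3725 to 7863, 3373 to 8912, 2674 to 4170.5 and 3109.8 to 5526 CPM for corticotroph markers (4, led by Pomc) and 986 to 1117, 952 to 1056, 961 to 1367 and 903 to 1005 CPM for gonadotroph markers (4, led by Fshb). Stem and folliculostellate markers (5, led by Aldh1a2) summed to 79.0 to 87.0, 84.2 to 99.1, 67.5 to 80.3 and 59.2 to 74.8 CPM, endothelial markers (5, led by Plvap) to 180.3 to 280.3, 140.2 to 261, 174 to 253 and 148 to 225 CPM, stromal and pericyte markers (5, led by Col1a2) to 310.3 to 398, 232 to 371, 298 to 305 and 283 to 321 CPM and red blood cell markers (3, led by Hba-a1) to 28.5 to 55.5, 65.7 to 77.7, 24.4 to 61.6 and 25.1 to 80.8 CPM. Of these, the stem and folliculostellate sums were lower in Thrb-KO without overlap between hyperthyroid glands, the stromal and pericyte sums were lower in Thrb-KO without overlap between hypothyroid glands, and the red blood cell sums were higher under T3 without overlap in wild type. From these lists T3 lowered Col1a1 in wild type (−0.73), Pcsk2 (−0.68) and Col1a2 (−0.64) were lower in hypothyroid Thrb-KO, and in hyperthyroid Thrb-KO Nr5a1 was higher (0.60) and Aldh1a2 lower (−0.59). Nr5a1 was under 1.5-fold and not called by edgeR and DESeq2 (0.53 by each), and these called 2 stem and folliculostellate genes there where limma called 1.

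The marker lists given above that had no gene called by limma were as follows. In wild type they were 9 lists with 36 genes tested, 9 at an unadjusted p under 0.05, 3 called by edgeR and 3 by DESeq2. The genes called there, named after their values were seen, were posterior lobe and axon markers that rose under T3, Lhx2 (0.64 by edgeR) and Nkx2-1 (0.65) by both tools, Oxt by edgeR (1.54) and Avp by DESeq2 (1.47). DESeq2 gave no p-value for Oxt. The sum of Avp and Oxt ran from 3.52 to 20.2 CPM in hyperthyroid wild type, with replicate 3 highest and apart from the rest. In Thrb-KO the lists with no gene called by limma were 12 lists with 50 genes tested, 7 at an unadjusted p under 0.05, 0 called by edgeR and 1 by DESeq2. For the difference between responses they were 12 lists with 44 genes tested, 2 at an unadjusted p under 0.05, 0 called by edgeR and 0 by DESeq2. Between hypothyroid glands they were 9 lists with 31 genes tested, 5 at an unadjusted p under 0.05, 0 called by edgeR and 0 by DESeq2, and between hyperthyroid glands 9 lists with 30 genes tested, 4 at an unadjusted p under 0.05, 0 called by edgeR and 2 by DESeq2. DESeq2 called Slc17a7 higher under T3 in Thrb-KO (0.62), and Avp (−1.45) and Prl (−0.90) lower in hyperthyroid Thrb-KO.

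Peaks near the genes were read from the deposited lists, which hold 8051 receptor peaks in pituitary, 5164 in cerebral cortex and 1776 T3-regulated ATAC peaks, on mouse build mm9. A peak within 20 kb of the gene was present for 1 of the 10 members in the pituitary list (Gal), 0 in the cortex list and 1 in the ATAC list (Tac1). Of the 5 members that passed the filter it was 1, 0 and 0. Of the 14211 tested genes with coordinates, 40.1% had a pituitary peak, 33.6% a cortex peak and 7.72% an ATAC peak at that distance. The receptor lists give reads of merged libraries and the ATAC list gives an adjusted p without reads, so no values per replicate were read from them, and the ATAC list gives no direction of change.

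Gal lies at chr19:3409919-3414472 on the minus strand. Its peak, chr19:3428651-3428750, is 100 bp wide and 14179 bp upstream of the gene, between genes, with 10 reads in the tagged and 1 in the control libraries, a fold of 8.34 as the authors scaled it. Within 50 kb there were 2 more pituitary peaks, chr19:3361701-3362100 inside Cpt1a (15 and 0 reads) and chr19:3388901-3389050 inside Mtl5 (11 and 1 reads). Tac1 lies at chr6:7505071-7512973 on the plus strand, and its ATAC peak, chr6:7505181-7505303, is 123 bp wide and lies in intron 1, 19 bases after the end of exon 1. The Tac1 RNA stood at 0.0932 to 0.703 CPM in these libraries.

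Cartpt lies at chr13:100668439-100670638 on the minus strand, and its nearest pituitary peak, chr13:100637201-100637350, is 150 bp wide and 31089 bp downstream, with 12 reads in the tagged and 0 in the control libraries. Pdyn lies at chr2:129512301-129525580 on the minus strand, with a cortex peak 40721 bp upstream (chr2:129566301-129566600, 12 and 0 reads) and its nearest pituitary peak 100671 bp upstream. For Nmb (chr7:88047114-88049962) and Penk (chr4:4060678-4065966) the nearest pituitary peaks were 135164 and 968178 bp away. The nearest ATAC peak to Penk was 110210 bp away. The nearest pituitary peaks to Vip, Npy, Tac1, Adcyap1 and Nts lay at 158427, 280245, 646278, 993026 and 1255394 bp.

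**Figure D3:**
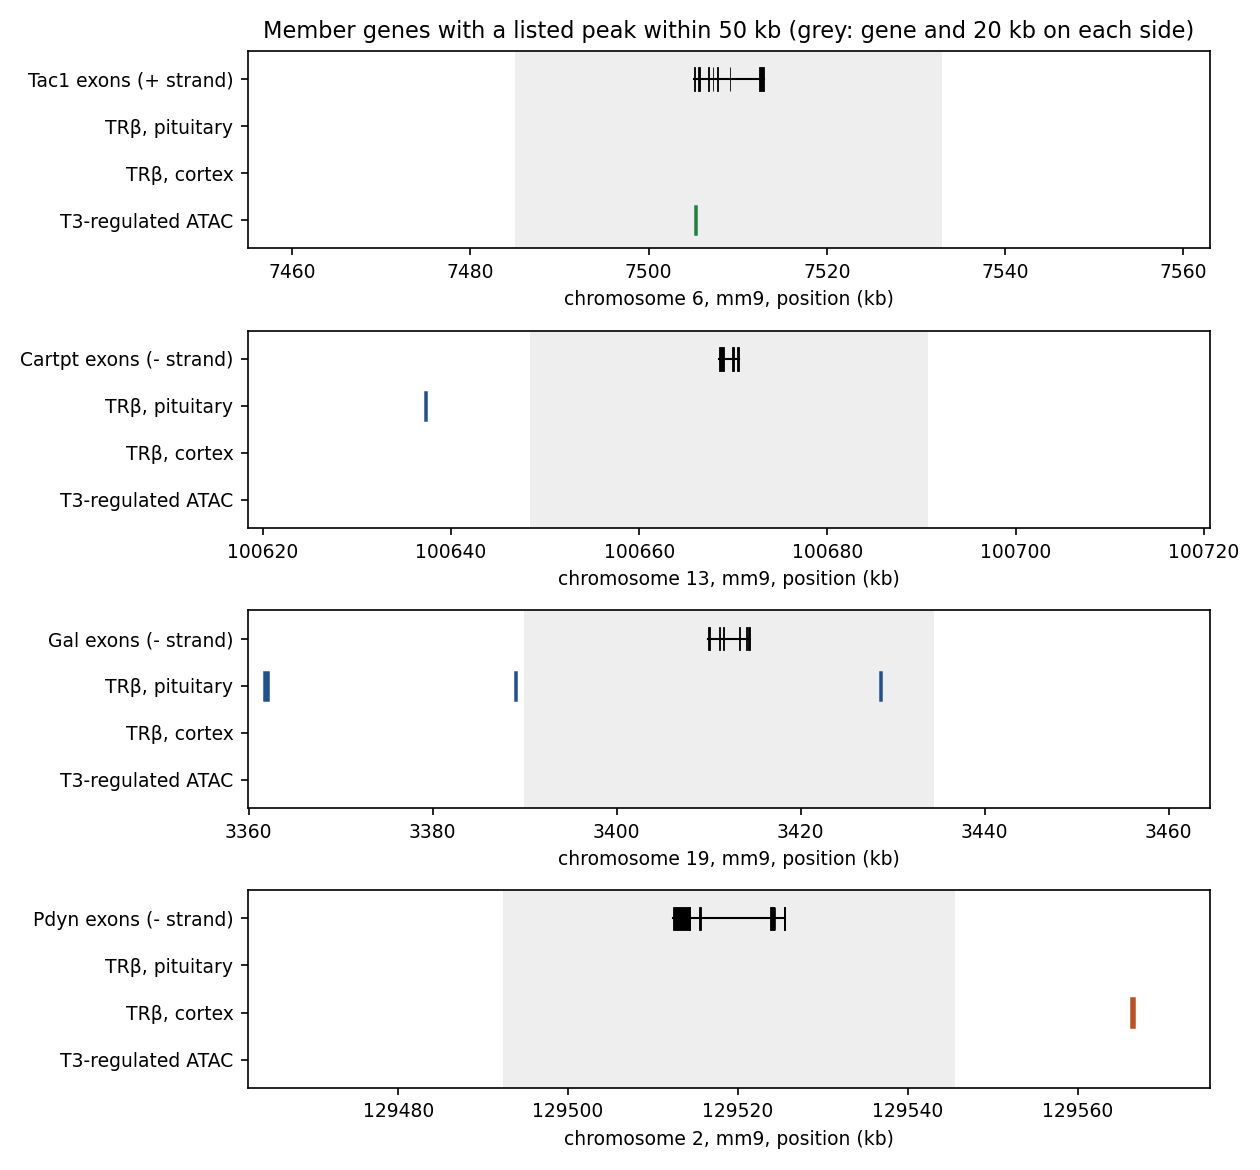
Peaks around Tac1, Cartpt, Gal and Pdyn on build mm9, with the chromosome position on the x axis, the exons of the gene with its strand in the label, and the peaks of each list as bars drawn no narrower than the line. The pituitary peak nearest to Gal lies 14179 bp upstream of it, that nearest to Cartpt 31089 bp downstream, the cortex peak near Pdyn 40721 bp upstream, and the ATAC peak of Tac1 lies 19 bases after exon 1.

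Of the other lists, a pituitary peak within 20 kb was present for 3 of the 8 tested receptors with coordinates (1 of the 9 tested had none), 6 of 11 processing, 4 of 8 degrading and 4 of 16 other precursor genes. A cortex peak was present for 2, 4, 2 and 5 of them, and an ATAC peak for 2, 2, 1 and 1. Pam, Apln and Chgb each had 1 pituitary peak, and Pcsk1, Rln3, Vgf and Oprk1 had 0. The receptors with a pituitary peak were Adcyap1r1, Oprm1 and Ntsr2, and those with an ATAC peak were Oprm1 and Ntsr2.

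The receptor is known to bind 2 copies of AGGTCA separated by 4 bases. The Gal and Tac1 peaks were searched for this repeat on both strands, and 0 of these 2 peaks held it with at most 1, 2 or 3 mismatches over the 12 fixed bases. The closest stretch in each matched 8 of 12 bases, which was also so for the Cartpt peak. With at most 2 mismatches, 20.9% of all pituitary peaks, 9.30% of cortex peaks and 30.9% of ATAC peaks held it, and these peaks are of other widths. The peaks also held no AGGTCA with 0 mismatches. These sequences are shown because they are the only listed peaks within 20 kb of a member and the peak nearest to Cartpt. They are given 5′ to 3′ on the plus strand of mm9 with no base in capitals, since no motif was found.
Gal pituitary peak chr19:3428651-3428750: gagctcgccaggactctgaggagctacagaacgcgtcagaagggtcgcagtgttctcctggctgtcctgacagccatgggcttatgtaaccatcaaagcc
Cartpt pituitary peak chr13:100637201-100637350: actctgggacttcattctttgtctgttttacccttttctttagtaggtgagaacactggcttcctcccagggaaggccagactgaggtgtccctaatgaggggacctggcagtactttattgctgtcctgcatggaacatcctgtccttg
Tac1 ATAC peak chr6:7505181-7505303: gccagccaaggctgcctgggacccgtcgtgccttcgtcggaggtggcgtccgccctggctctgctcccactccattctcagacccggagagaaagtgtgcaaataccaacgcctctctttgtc

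Promoters, taken as the 250 bases before the start of transcription in RefSeq on build GRCm38.p6, were found for 9 of the 10 members, and Penk had no entry. AGGTCA, searched on both strands, was in none of the members' promoters, beside 14.0% of the 32851 promoters in the table. The letters TGACGTCA, the cAMP response element, were searched after the sequences were seen. They were found in Cartpt, 112 bases before the start, and in Pcsk1, 78 bases before it, beside 1.55% of all promoters. Rln3 held 2 copies of AGGTCA, 115 and 71 bases before its start. A match is a description of the letters and not a site. The promoters of Cartpt and Nmb, which were high in the same libraries, and of Rln3, the gene most like Cartpt over the libraries, are shown 5′ to 3′ on the strand of the gene, the minus strand for all 3, with TGACGTCA or AGGTCA in capitals.
Cartpt promoter chr13:99900684-99900933: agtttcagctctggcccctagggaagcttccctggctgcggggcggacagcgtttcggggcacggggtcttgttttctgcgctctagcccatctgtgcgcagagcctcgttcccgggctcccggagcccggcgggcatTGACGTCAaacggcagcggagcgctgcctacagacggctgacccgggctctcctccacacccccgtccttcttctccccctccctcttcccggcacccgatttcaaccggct
Nmb promoter chr7:80905063-80905312: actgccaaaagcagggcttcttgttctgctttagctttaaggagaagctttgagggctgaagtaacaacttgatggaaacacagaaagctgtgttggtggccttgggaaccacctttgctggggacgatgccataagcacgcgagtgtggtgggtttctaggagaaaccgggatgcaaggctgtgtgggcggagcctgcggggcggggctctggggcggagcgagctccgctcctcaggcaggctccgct
Rln3 promoter chr8:84044980-84045229: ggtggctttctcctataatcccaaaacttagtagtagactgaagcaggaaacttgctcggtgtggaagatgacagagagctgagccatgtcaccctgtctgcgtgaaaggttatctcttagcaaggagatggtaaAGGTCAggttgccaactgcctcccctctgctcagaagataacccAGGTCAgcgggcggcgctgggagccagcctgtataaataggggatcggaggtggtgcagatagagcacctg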

How the data were processed

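The authors sequenced 18 pituitary RNA libraries and mapped them with BBMap to RefSeq transcripts, and the deposited table gives CPM (reads scaled to 1000000 per library) for 29082 transcripts of 22835 genes, not divided by length. Every library's values were whole multiples of 1 read (100% of values within 0.05 of a whole read), so reads were recovered from them, and each column was scaled to its own total. The deposited receptor peak lists, per the file layout of SICER with a window of 50 bp, give read counts of the merged tagged and control libraries, a p-value with its false discovery rate, and a ratio (fold) that the authors scaled. The deposited ATAC list gives a p-value, adjusted by the authors. ATAC lists were read as positions only, except for the stricter list of 852 of the 1776 peaks used as an alternative.

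The members and the gene lists were chosen with earlier results of these data known. Each gene was read from its transcript with the highest mean CPM. Genes above 1 CPM in at least 4 of the 18 libraries (14472) were fitted with limma 3.58.1 (empirical Bayes with a trend) on log2(CPM + 1) in a model of the 4 groups with 5 contrasts, with p-values adjusted over all genes by the Benjamini-Hochberg method, and called at an adjusted p under 0.05 and 1.5-fold. Alternatives were pseudocounts of 0.1 and 0.5, CPM above 1 in all 18 libraries, no filter, TMM scaling (factors 0.811 to 1.05), edgeR 4.0.16 and DESeq2 1.42.0 on reads, the replicate number or the library set as a block, each set alone, CPM summed over transcripts and each library left out. Of 14472 genes, edgeR called 1777 and DESeq2 1843 in the wild-type T3 response. Fits of edgeR and DESeq2 to the 18592 genes with at least 10 reads, and their repeats, were chosen after seeing the data. R 4.3.3, Python 3.11.15, numpy 2.4.6, pandas 2.3.3, scipy 1.17.1 and matplotlib 3.10.9 were used.

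The labels do not say whether replicate numbers link libraries. Over the tested genes, after removing group means, libraries of the same number correlated at 0.281 to 0.797 (17 pairs), those of a different number in the same set at 0.266 to 0.725 (36 pairs) and those of the other set at −0.765 to −0.255 (60 pairs), and 4 of 18 libraries correlated best with their own number. The numbers were thus tried as a block.

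Named genes were all members, Thrb, from each list up to 3 called genes either way, by size of change, in the T3 responses and their difference, the receptors of called members and the 3 tested genes most like each called member. The lists were receptors, processing enzymes, degrading enzymes, other precursors and 15 sets of cell type markers, of which 1 is not reported here and enters no count of lists; it was left out on request and not for its values. Peaks were counted within 20 kb of the gene in GENCODE coordinates, and lengths per kb are those of the longest coding transcript there.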

Additional observations from a re-analysis of the deposited data

Results flagged for a closer look

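In 6 of 71 groups of 4 or 5 libraries, 1 library stood far from the others, by a gap to its neighbour that was large against the range of the group on the log2(CPM + 1) scale. Chance marks about 1 in 20 groups in this way. For Tac1 it was hypothyroid Thrb-KO replicate 5, at 0.703 CPM beside 0.205 to 0.289 CPM, with a gap of 0.804 of the range. For Cartpt it was hypothyroid Thrb-KO replicate 2, at 0.524 CPM beside 0.752 to 0.855 CPM, with a gap of 0.71 of the range. For Gal it was hypothyroid wild-type replicate 2, at 1.28 CPM beside 2.23 to 2.30 CPM, with a gap of 0.942 of the range. Oprk1 was high in hyperthyroid wild-type replicate 1, at 0.315 CPM beside 0.203 to 0.220 CPM, with a gap of 0.842. For Nts in hyperthyroid Thrb-KO replicate 2 and for Adcyap1 in hyperthyroid wild-type replicate 2 the gap was 1, the whole range, and each rests on 1 read where the other libraries had 0.

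The T3 response differed between the genotypes, by the limma test of the difference itself, for Thrb and 12 genes of the lists. As the response in Thrb-KO minus that in wild type on the log2 scale, the differences were 1.27 for Nmb, 2.61 for Cartpt, 1.42 for Penk and 0.80 for Pdyn among the members. Among the processing enzymes they were 1.73 for Pcsk1 and 0.95 for Pam. Among the other precursors they were 3.23 for Rln3 (not called by edgeR), 1.46 for Vgf and −0.88 for Apln. Among the cell type markers they were 2.04 for Trhr, 2.81 for Dio2 and 0.88 for Slc17a6. For Thrb it was 1.26. The cause of these differences was not tested.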

How the results depend on the processing

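Of the log2 changes of the 5 tested members and of Vip and Tac1, 16 were called. Those of Vip and Tac1 came from the edgeR fit to genes with at least 10 reads, chosen after seeing the data. With 1 library left out the called changes kept their direction and call in 283 of 288 refits, and in the other 5 the call was lost. The lost calls were of Vip, in wild type and between hyperthyroid glands, and of Nmb, in the difference between responses. Under the other alternatives the called changes kept direction and call in 196 of 199 values and lost the call in 3. Cartpt and Gal do not pass the filter of CPM above 1 in all 18 libraries, so their calls have no value under it and are not in the 199. The 19 changes that were not called kept their direction and stayed not called in 331 of 342 refits without 1 library, with 1 newly called and 10 of the opposite sign, and in 167 of 181 other values, with 12 newly called and 2 of the opposite sign. The replicate number as a block changed the call of Penk between hypothyroid glands and of no other member.

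The T3 response of Thrb-KO had 0 members called, 1 with a pseudocount of 0.1, 1 with edgeR, 2 with DESeq2, 1 within replicates 3 to 5, 1 and 2 with edgeR and DESeq2 on genes with at least 10 reads, and 0 to 1 without 1 library. Its count over all genes, 193, was 318 with DESeq2 on genes with at least 10 reads. Between hypothyroid glands 3 members were called, and 1 with CPM above 1 in all 18 libraries, a filter that only 3 members pass. All genes called there were 513, 790 with DESeq2, and 833 and 914 with edgeR and DESeq2 on genes with at least 10 reads. Between hyperthyroid glands they were 817, 1328 within replicates 3 to 5, and 1256 and 1350 with edgeR and DESeq2 on genes with at least 10 reads. The other counts of members and of genes called in both directions together stayed within 1.5 times. Counts per direction moved by more, such as the genes called lower between hyperthyroid glands, 408, 678 with edgeR and 754 with DESeq2, and those called higher in wild type, 620 and 934 with DESeq2. Except for the filter, the cause was not tested.

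Opposite signs were found for 4 values, none of them called in the fit to all libraries. Penk between hypothyroid glands went from −0.52 to 0.058 within replicates 3 to 5. Nmb between hyperthyroid glands went from 0.10 to −0.19 within replicates 3 to 5, and ran from −0.059 to 0.23 without 1 library. Vip in Thrb-KO ran from −0.34 to 0.028 and Tac1 between hypothyroid glands from −0.42 to 0.30 without 1 library. For Tac1 the value with all libraries was −0.0010 (adjusted p = 1), close to 0, so its 7 values of the opposite sign are moves around 0 and show no direction that turned. The cause was not tested.

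Members with a pituitary peak numbered 1 within 20 kb, 2 within 50 kb, 2 within 100 kb and 0 in the stricter list of 4025 peaks. With a cortex peak they numbered 0, then 1 within 50 kb and 2 within 100 kb. With an ATAC peak they numbered 1, and 0 in the stricter list of 852 peaks.

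Floors of 3 reads cover counting error only, as amplified copies of a molecule were not told apart. Npy, Nts and Adcyap1 had at most 13 reads per group, and limma with no filter called no difference between groups for them. For Npy, edgeR and DESeq2 on genes with at least 10 reads also called none. With so few reads a difference could be missed, and Vip and Tac1 also rest on few reads per library. Each library is a pool of 3 glands, so spread between animals is not seen. Peak lists come from other mice, and their spread between libraries was not read.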
